A study of Mus musculus with 6 samples.

Results

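The 8 genes described here encode the regulators that set the activity of NRF2, the main transcription factor of the antioxidant response. They were taken by symbol from a table of 17144 genes, and all 8 were listed: KEAP1, CUL3, NFE2L2, NFE2L1, BACH1, MAFF, MAFG and MAFK. The messenger RNA of cells labelled SaOS2 was sequenced in 3 libraries titled D and 3 titled C. The series concerns a compound called DDTC(I), but no label gives its dose or time or spells out the letters, so the groups are called D and C and each change is D relative to C. Every library is labelled as the same osteosarcoma line. Whether the 3 libraries of a letter are independent cultures is not stated, so a p-value refers to library-to-library spread that could be technical.

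Library depth and cell identity were read before the members. Totals ran from 18446443 to 20602771 counts per library. Libraries of the same group differed by more than sampling noise, with a chi-square statistic per degree of freedom between 6.21 for C replicates 1 and 2 and 90.49 for D replicates 2 and 3. ALPL, the alkaline phosphatase gene that marks osteoblasts and is known to be highly active in SaOS2, had only 9, 15 and 12 counts in D and 13, 12 and 8 counts in C. SP7, BGLAP and IBSP, also osteoblast markers, were at or near 0, while RUNX2, COL1A1, COL1A2 and SPARC were detected, and the summed level of the 8 osteoblast markers was 705 to 796 CPM in D and 1988 to 2346 CPM in C. Most of that sum came from SPARC, a matrix protein gene that many cell types express, with 729, 639 and 677 CPM in D and 2093, 1868 and 1778 CPM in C. The 5 epithelial markers summed to 101 to 135 CPM in D and 79.4 to 88.7 CPM in C, nearly all from KRT8 and KRT18, with EPCAM near 0. The 5 hematopoietic markers summed to 459 to 501 CPM in D and 478 to 499 CPM in C, nearly all from CD68, with PTPRC and CD3E near 0. The 5 endothelial markers summed to 14.3 to 15.5 CPM in D and 20.2 to 25.1 CPM in C. The ALPL values go against the SaOS2 label, and the organism label says mouse although the gene symbols are human ones, so the cells are named by their label only. In bulk RNA, fewer cells of a type and less RNA per cell cannot be told apart. The part of cell identity in the results below was not tested.

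NRF2, the product of NFE2L2, is made continuously and destroyed as long as the adaptor KEAP1 presents it to a ubiquitin ligase built on the scaffold CUL3. Electrophiles, oxidants and some metals modify cysteines of KEAP1, after which newly made NRF2 escapes, enters the nucleus and binds antioxidant response elements together with a small MAF protein. BACH1 competes for the same elements and the same MAF partners, represses genes such as the heme oxygenase gene, and is released and degraded when it binds heme. NRF1, the product of NFE2L1, is a relative of NRF2 held in the endoplasmic reticulum that activates proteasome genes when the proteasome is impaired. MAFF, MAFG and MAFK carry a DNA-binding leucine zipper and no activation domain, so they act as partners, or as repressors when they pair with each other. Much of this control acts on proteins, which were not measured here.

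Of the 8 regulators, 5 were higher in D and 0 were lower in the edgeR test across all genes, against 26.8% of all 12682 tested genes higher, 27.7% lower and 54.4% called in either direction. That background is 3393 genes higher and 3509 lower, and it was 2586 and 4449 without scaling factors, where the median change of all genes was −0.17 and 5 members were still higher, with CUL3 lower. The adaptor gene KEAP1, NFE2L2 and the 3 small MAF genes were the 5 called, each by more than 2-fold, a size of rise that 8.37% of tested genes reached. CUL3, BACH1 and NFE2L1 were not called. The median log2 change of the 8 was 1.14, beside −0.02 over all tested genes. All 8 passed the filter on low counts, with between 317 and 17101 counts per library, which puts their counting error in D between 0.94% for NFE2L1 and 3.50% for BACH1, beside coefficients of variation between D libraries of 6.91% to 33.7%. In normalized CPM, that is counts scaled to a common library total and by a TMM factor per library, 5 members had every D library above every C library, 1 had every D library below, and 2 overlapped. Of all tested genes, 30.6% had D wholly above C and 32.1% had D wholly below.

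**Figure D1:**
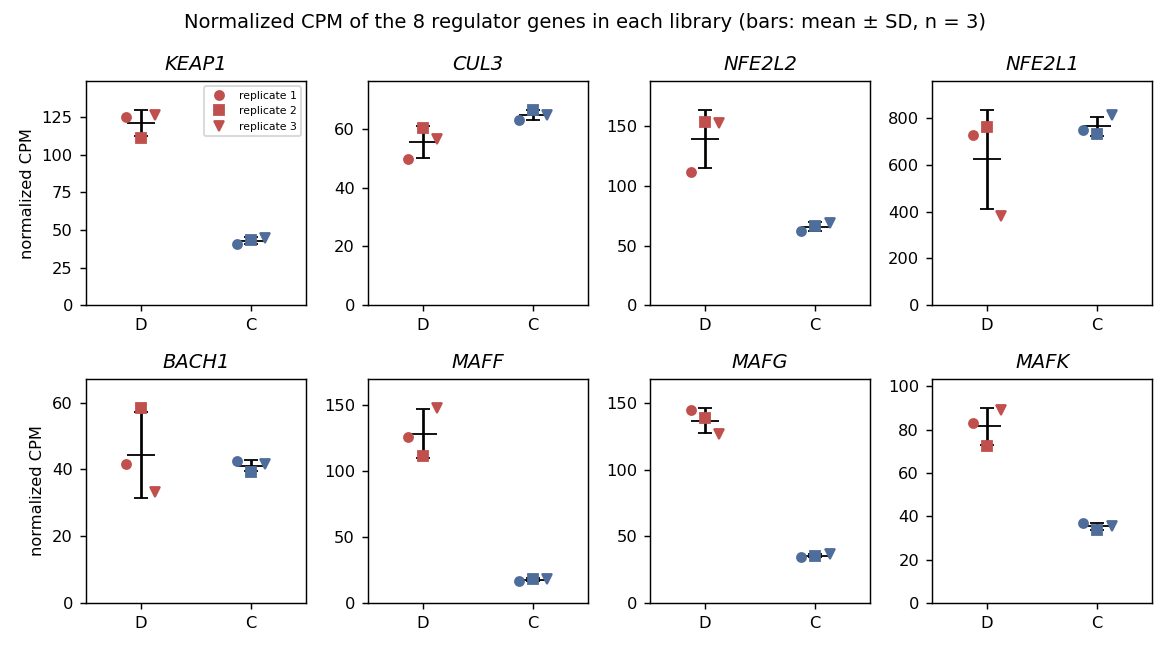
Normalized CPM (vertical axis, from 0) of each regulator gene in the 3 D and 3 C libraries, with 1 marker shape per replicate number and bars for the mean ± SD. KEAP1, NFE2L2, MAFF, MAFG and MAFK lie higher in every D library, while NFE2L1 and BACH1 spread widely in D and overlap C.

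KEAP1, the brake on NRF2, was itself among the higher genes. It had 125, 111 and 126 CPM in the 3 D libraries and 40.6, 43.1 and 44.9 CPM in the 3 C libraries. The lowest D library was more than 2-fold above the highest C library, and the D libraries varied little among themselves, with a coefficient of variation of 7.18%. The log2 fold change was 1.49 ± 0.11 (SE), a 2.82-fold rise (edgeR adjusted p = 1.9e-05), and it stayed between 1.28 and 1.59 when the tool, the scaling or the libraries were changed.

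CUL3, the scaffold of the ligase, was not called. Its values were 49.7, 60.3 and 56.5 CPM in D and 63.1, 66.4 and 64.6 CPM in C. Every D library was below every C library, but the gap was small beside the spread in D, and the log2 fold change of −0.22 ± 0.11 missed the threshold (edgeR adjusted p = 0.11). It was called as lower with library size only (−0.37) and on the FPKM scale, and it was −0.032 once each library's trend along gene length was removed. CUL3 is the longest member at 7292 bp.

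NFE2L2, which encodes NRF2, was about doubled at the RNA level. It reached 112, 153 and 153 CPM in D, against 62.3, 66.0 and 69.3 CPM in C. D replicate 1 was the lowest of the D libraries by 0.46 on the log2 scale relative to the other D libraries, and it was still above all C libraries. The log2 fold change was 1.08 ± 0.14 (edgeR adjusted p = 0.00032), with a range of 0.88 to 1.22 over all alternatives.

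NFE2L1, which encodes NRF1, had the highest level of the 8 genes and did not pass the test. Its D values were 726, 761 and 381 CPM, and its C values were 749, 730 and 810 CPM. Replicate 2 of D lay within the C range, replicate 1 just below it, and replicate 3 alone was low, at 0.96 log2 units below the other D libraries. Genes of like length had a median of 0.04 for the same difference. The log2 fold change was −0.29 ± 0.23 (edgeR adjusted p = 0.31), and it was −0.026 without D replicate 3. Across the D libraries the coefficient of variation was 33.7%, beside 5.48% in C and a counting error of 0.94%.

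BACH1, the repressor that competes with NRF2, was not called either. Its levels were 41.6, 58.4 and 33.2 CPM in D and 42.4, 39.2 and 41.6 CPM in C. The C libraries fell inside the range of the D libraries, and the log2 fold change of 0.11 ± 0.19 was not called (edgeR adjusted p = 0.63). Its sign depended on D replicate 2, since without that library it was −0.10, and on the scaling, since with library size only it was −0.032. Like NFE2L1, BACH1 was lowest in D replicate 3, with a log2 difference of −0.57 from the other D libraries. Unlike for NFE2L1, genes of like length were also low there, with a median of −0.22. In D replicate 2 the difference was 0.65 for BACH1 and the median of genes of like length was 0.21.

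Among the small MAF genes, MAFF rose most. It had 126, 111 and 148 CPM in D, against 16.2, 18.1 and 18.2 CPM in C, a 7.32-fold rise (log2 fold change 2.87 ± 0.14, edgeR adjusted p = 4.9e-06). In rank of log2 fold change it stood at place 126 of the 12682 tested genes. MAFG, a well-studied partner of NRF2, had 145, 139 and 127 CPM in D and 34.7, 35.2 and 36.9 CPM in C. Its rise of 3.85-fold (1.94 ± 0.10, adjusted p = 6.7e-06) came with the least relative spread in D of all members, a coefficient of variation of 6.91%. MAFK had 82.9, 72.5 and 89.3 CPM in D and 37.1, 33.8 and 35.3 CPM in C, a 2.30-fold rise (1.20 ± 0.11, adjusted p = 7.4e-05). For each of the 3 genes the D and C libraries were widely separated, and each call held under every alternative tried. The strand setting of the counting is not given in the sources used here, so reads of antisense transcripts at these genes could not be set apart.

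**Figure D2:**
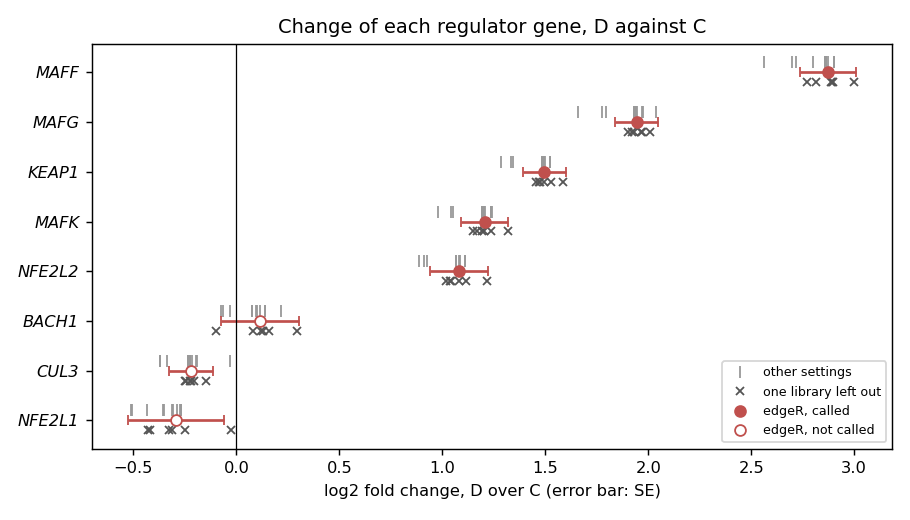
Log2 fold change of D over C (horizontal axis) for each regulator gene, with its standard error, filled where called. Ticks above each point are other settings and crosses below it leave out 1 library. MAFF is farthest to the right at 2.87, and the marks of BACH1 fall on both sides of 0.

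Levels between genes were compared per length, in the authors' FPKM (counts per kilobase of gene length at a common library total, with no further scaling between libraries). In C, NFE2L1 was highest at 235 ± 13.8 FPKM (SD, n = 3, as throughout), followed by NFE2L2 at 21.8 ± 1.21 and KEAP1 at 14.9 ± 0.78. MAFK (9.79 ± 0.46) and CUL3 (9.35 ± 0.22) came next and overlapped each other. MAFF (7.56 ± 0.49), BACH1 (7.41 ± 0.31) and MAFG (7.24 ± 0.26) closed the order and could not be separated by their ranges. In D, NFE2L1 was again highest at 174 ± 62.5 FPKM, but MAFF, sixth in C, was second at 49.7 ± 5.61. NFE2L2 (41.5 ± 6.89) overlapped both MAFF and KEAP1 (37.7 ± 2.13) in D, and MAFF and KEAP1 did not overlap. MAFG (25.1 ± 2.43) stood above MAFK (20.3 ± 1.58) without overlap in D. BACH1 (7.25 ± 2.28) and CUL3 (7.22 ± 0.75) were lowest in D and overlapped. Among all listed genes, MAFF stood at percentile 92.4 of mean FPKM in D and 65.7 in C.

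The makeup of the small MAF pool, taken as the share of each gene in the summed FPKM of the 3, differed between the groups. The sum was 97.4, 88.7 and 99.1 FPKM in D and 24.3, 24.2 and 25.2 FPKM in C. MAFF made up 50.9%, 49.8% and 55.8% of it in D, against 28.8%, 32.1% and 31.3% in C. MAFK made up 21.5%, 20.8% and 21.6% in D, against 42.1%, 38.5% and 38.8% in C. MAFF was thus the main small MAF transcript in every D library and MAFK in every C library. The share of MAFG was 26.5 ± 3.56% in D and 29.5 ± 0.41% in C, and the groups overlapped. These shares are ratios within a library and do not depend on scaling between libraries, but they do rest on the authors' gene lengths. No p is given for them, and 3 libraries against 3 could not give an exact permutation p below 0.1.

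**Figure D3:**
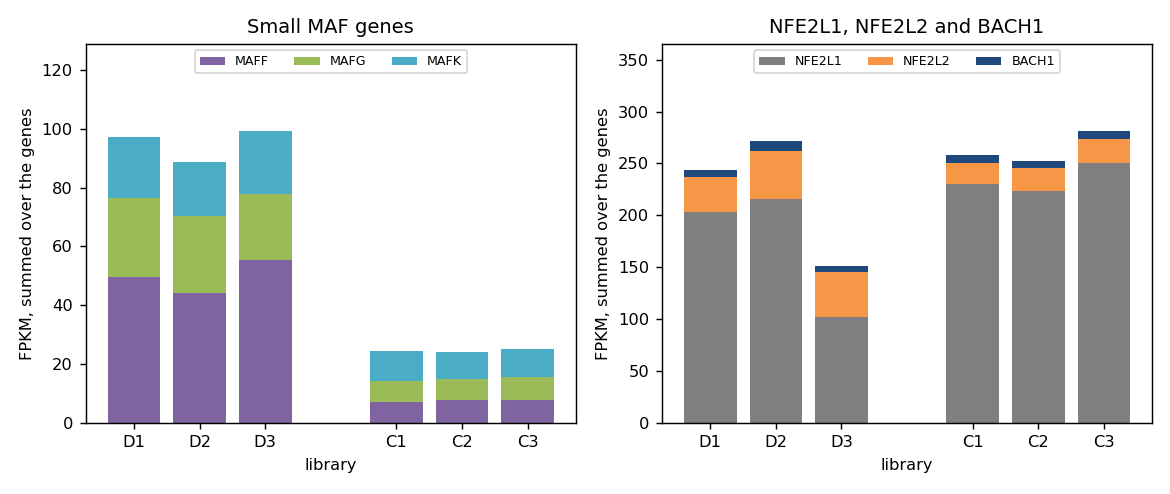
Stacked FPKM (vertical axes, from 0) of the small MAF genes and of NFE2L1, NFE2L2 and BACH1 in each library. The small MAF sum is 88.7 to 99.1 FPKM in D and 24.2 to 25.2 FPKM in C, while the sum of the 3 factors overlaps and is lowest, at 151 FPKM, in D replicate 3.

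The summed level of NFE2L1, NFE2L2 and BACH1, the members that pair with small MAF proteins, overlapped between the groups. They summed to 244, 272 and 151 FPKM in D and 258, 253 and 281 FPKM in C. Within that sum the share of NFE2L2 was 13.8%, 17.2% and 29.2% in D, against 7.98%, 8.62% and 8.21% in C. The highest of these shares belongs to D replicate 3, the library with low NFE2L1. The share of BACH1 overlapped between the groups, at 3.27 ± 0.41% in D and 2.81 ± 0.14% in C. NFE2L3, a relative of NFE2L1 outside the members, was not part of the sum. It had 14.6, 15.1 and 12.1 FPKM in D and 56.0, 59.9 and 57.3 FPKM in C. The overlap of the sum therefore covers these members only.

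Transcript ratios between activator, repressor, brake and partners were read in each library. The ratio of NFE2L2 to BACH1 was 4.93, 4.82 and 8.47 in D and 2.70, 3.09 and 3.06 in C. All D libraries were above all C libraries, and the highest ratio belongs to D replicate 3, the library with the lowest BACH1. KEAP1 over NFE2L2 was 1.18, 0.76 and 0.87 in D and 0.68, 0.68 and 0.68 in C, so KEAP1 transcripts gained on those of its substrate in every D library, though by little in replicate 2. KEAP1 over CUL3 was 6.05, 4.42 and 5.38 in D, against 1.55, 1.56 and 1.67 in C. Small MAF transcripts over the sum of NFE2L2 and BACH1 came to 2.40, 1.57 and 2.01 in D and 0.86, 0.84 and 0.83 in C. In every D library the partners exceeded this sum and in every C library they fell short of it. With NFE2L1 added to the sum, the ratio was 0.40, 0.33 and 0.66 in D and 0.094, 0.096 and 0.090 in C. The partners fell short of that wider sum in every library. Transcript ratios say nothing of protein ratios.

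**Figure D4:**
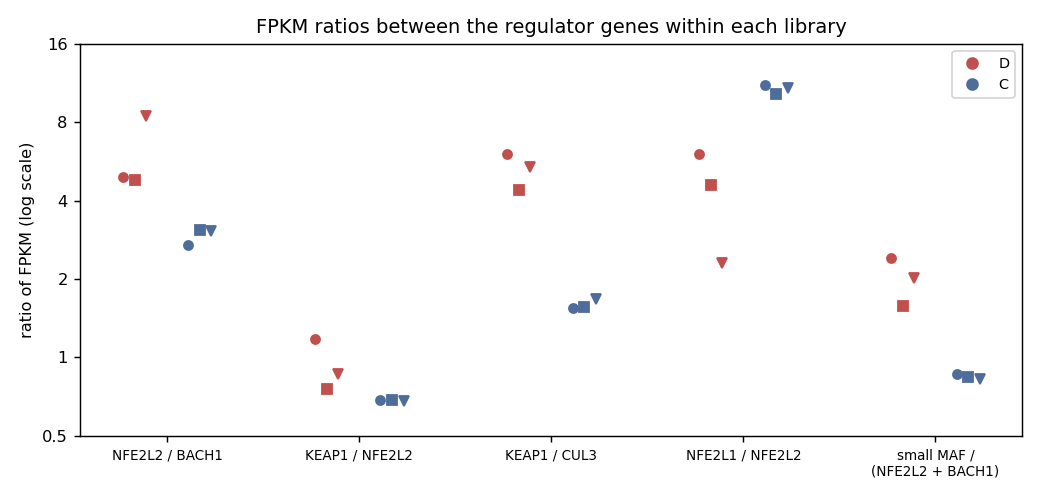
Ratios of FPKM between regulator genes (vertical axis, log scale) in each D and C library, with marker shapes as for the CPM plot. The D and C libraries do not overlap in any of the 5 ratios, and NFE2L1 over NFE2L2 is the only one lower in D, at 6.04, 4.61 and 2.31 against 11.2, 10.3 and 10.9 in C.

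The genes with the most similar course over the 6 libraries were sought among 9552 tested genes of at least 3 mean log2 CPM, by the Euclidean distance between centred log2 CPM profiles. For MAFF these were MSC, a bHLH transcription factor gene, at a distance of 0.20, and OSGIN1, a gene of the oxidative stress response, at 0.24. For MAFG they were the angiogenic factor gene VEGFA (0.14) and KLHL21, a BTB-Kelch gene like KEAP1 (0.20). KEAP1 itself lay closest to SUPV3L1 (0.10) and FLYWCH1 (0.13), MAFK to SNAI1 (0.12) and DNAJB6 (0.14), and NFE2L2 to TDG (0.13) and GBP3 (0.20). The uncalled members were closest to uncalled genes, NFE2L1 to MGRN1 (0.07) and TECPR2 (0.08), CUL3 to PHF10 (0.07) and DHX15 (0.09), and BACH1 to ZBTB21 (0.11) and RBM27 (0.11). Among the members themselves, the closest were KEAP1 and MAFK, at 0.41. The closest of 9552 genes can be no farther than the closest member, so these distances do not show how alike the members are. The profiles also include the difference between D and C, which places uncalled members near uncalled genes.

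Known NRF2 target genes were mostly higher in D. Of 34 listed, 33 were tested, of which 27 rose (81.8%) and 1 fell (3.03%), beside 26.8% and 27.7% of all tested genes. The median log2 change was 1.23, and 5 were not called, among them TKT, AKR1C2, AKR1C3 and EPHX1. TKT (0.27), AKR1C3 (0.47) and EPHX1 (0.38) were called as higher without D replicate 2. They were also called with length trends removed (0.17, 0.24 and 0.20), and AKR1C3 and EPHX1 with DESeq2 (0.38 and 0.32). EPHX1 was further called with limma-voom (0.29), RLE factors (0.32) and a minimum of 1 CPM in 3 libraries (0.29). HMOX1, the heme oxygenase gene that BACH1 represses, had 4319, 4135 and 5585 CPM in D and 177, 177 and 170 CPM in C. SLC7A11, the cystine importer, rose to 215, 322 and 157 CPM in D, against 30.5, 25.5 and 33.5 CPM in C. The sole fall was in CBR1, a carbonyl reductase, by 0.37 ± 0.13 (edgeR adjusted p = 0.035), and its call was lost when any library other than D replicate 3 was left out (log2 change −0.23 to −0.42) and with RLE factors (−0.34). AKR1C1, AKR1C2 and AKR1C3 are close copies, so the division of reads between them is uncertain.

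Partners that control KEAP1 and NRF2 went both ways. Of 31 genes tested, 9 rose (29.0%) and 4 fell (12.9%), the share of rises near that of all tested genes, and the median was 0.14. With length trends removed, 14 rose and 7 fell, beside 4169 and 3854 of all 12682 tested genes. With library size only, 7 rose and 8 fell, beside 2586 and 4449 of all tested genes. The medians there were −0.017 for the partners and −0.17 over all genes. SQSTM1, whose product p62 sequesters KEAP1 into autophagy, had 2531, 2273 and 2754 CPM in D and 490, 502 and 475 CPM in C, a log2 change of 2.36 ± 0.12 (edgeR adjusted p = 5.2e-06). SESN2, a sestrin that favours KEAP1 breakdown through p62, rose by 2.82 ± 0.11, while its relative SESN1 fell by 0.54 ± 0.16. The call of SESN1 was lost without C replicate 1 (−0.52) and without C replicate 2 (−0.51). TRIM21, a ubiquitin ligase of p62, also rose (1.17). CAND1, which exchanges adaptors on cullins (−0.70), CHD6, a chromatin remodeller (−1.29), and RXRA, a nuclear receptor that can bind NRF2 and inhibit it (−0.83), fell.

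Genes for the processing and breakdown of NRF1 held 5 rises (45.5%) and 0 falls among 11 tested, with a median of 0.07. Of all tested genes, 26.8% were higher, 27.7% lower and 54.4% called in either direction. The 5 were the p97 segregase gene VCP (0.64) with its cofactor genes UFD1 (1.40) and NPLOC4 (1.13), the deglycosylase gene NGLY1 (0.52) and the glycosyltransferase gene OGT (0.91). These p97 components extract NRF1 from the endoplasmic reticulum before it is cleaved. UFD1 had 194, 167 and 225 CPM in D and 73.4, 75.7 and 72.4 CPM in C, with no overlap. SEL1L, a component of the endoplasmic reticulum degradation complex, was not called (−0.39 ± 0.16, edgeR adjusted p = 0.063), but it was called as lower without D replicate 2 (−0.54) and in 5 other settings: upper quartile factors (−0.41), library size only (−0.54), length trends removed (−0.19) and both FPKM fits (−0.54 and −0.56). With these 5 settings the list held 5 rises and 1 fall.

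Of 5 genes of BACH1 breakdown and export, RBCK1, which encodes the ligase HOIL-1, rose (1.03 ± 0.13, edgeR adjusted p = 0.00029), 1 was not called, and 3 fell. The falls were small and close to the threshold: FBXO22 (−0.33, adjusted p = 0.044) and FBXL17 (−0.54, adjusted p = 0.046), both ubiquitin ligase subunits that recognise BACH1, and the nuclear export receptor gene XPO1 (−0.32, adjusted p = 0.044). Leaving out a library mostly ended these calls. FBXO22 was called only without D replicate 3, XPO1 only without D replicate 2 and FBXL17 only without D replicate 2, among the 6 fits that left out a library. With RLE factors the calls of FBXO22 (−0.31) and XPO1 (−0.29) were lost, leaving 1 rise and 1 fall, and with length trends removed there were 2 rises and 2 falls. Of all 12682 tested genes, 3528 rose and 3357 fell with RLE factors, and 4169 and 3854 with length trends removed.

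The wider families of the members were read beside them. Of 7 other CNC, BACH and large MAF genes tested, 0 rose and 3 fell (42.9%), beside 26.8% and 27.7% of all tested genes. The falls were in NFE2L3, NFE2 and MAF. NFE2L3, a close relative of NFE2L1, had 57.0, 58.1 and 49.7 CPM in D and 199, 213 and 203 CPM in C, a log2 change of −1.90 ± 0.11 (edgeR adjusted p = 8.0e-06). NFE2, the erythroid member, was near the detection limit, with 0, 0.21 and 0.11 CPM in D and 0.87, 0.88 and 0.81 CPM in C. MAF had 0.34, 0.62 and 0.51 CPM in D and 1.74, 0.83 and 1.18 CPM in C, a change no longer called if C replicate 1 (−1.02) or D replicate 1 (−1.12) was left out. MAFA had the lowest p among the uncalled genes that lay higher in D (0.74 ± 0.35, adjusted p = 0.11), and it was called without C replicate 1 (1.14) and without D replicate 2 (0.99).

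Other cullin genes, set beside CUL3, held 2 rises and 2 falls among 9 tested genes that include the RING partners RBX1 and RNF7. The share was 22.2% in each direction, near the 26.8% higher and 27.7% lower of all tested genes, so the counts do not set this list apart. CUL7 (−1.10 ± 0.12) and CUL9 (−0.73 ± 0.18) fell, and CUL4A (0.38 ± 0.10) and RNF7 (0.50 ± 0.17) rose. The rises of CUL4A and RNF7 were not called with library size only (0.22 and 0.34), without C replicate 1 (0.36 and 0.50) or without C replicate 2 (0.36 and 0.52), and that of RNF7 also not without C replicate 3 (0.45) or D replicate 1 (0.54). Without D replicate 2, 3 of the 9 rose and 4 fell, and 0 rose and 2 fell without C replicate 1 and without C replicate 2. All tested genes held 3888 rises and 3879 falls, 2627 and 2780, and 2752 and 2882 in these fits, in that order. Without scaling factors there were 0 rises and 3 falls in this list, beside 2586 rises and 4449 falls among all 12682 tested genes.

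The other BTB-Kelch genes, whose products are built like KEAP1 and in many cases serve CUL3 as adaptors, held more falls than rises. Of 43 symbols sought, 41 were listed and 34 tested, of which 6 rose (17.6%) and 14 fell (41.2%), beside 26.8% and 27.7% of all tested genes. The median was −0.26, where KEAP1 stood at 1.49. KLHL21, an adaptor that acts in cell division, rose to 221, 210 and 195 CPM in D, against 53.3, 56.9 and 65.6 CPM in C (1.83 ± 0.12, edgeR adjusted p = 1.4e-05). KBTBD8 (1.87 ± 0.21) and KLHL20, with 15.2 ± 2.21 CPM in D and 7.60 ± 0.66 CPM in C, also rose. KLHL17 (−0.90), IVNS1ABP (−0.87) and KLHL36 (−0.71) were the called falls of the greatest size among those averaging 3 or more in log2 CPM. The split was 5 rises and 16 falls with library size only, 9 and 13 with length trends removed, and 9 and 12 without D replicate 3. For all tested genes it was 2586 and 4449, 4169 and 3854, and 3868 and 3837 in the same settings.

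**Figure D5:**
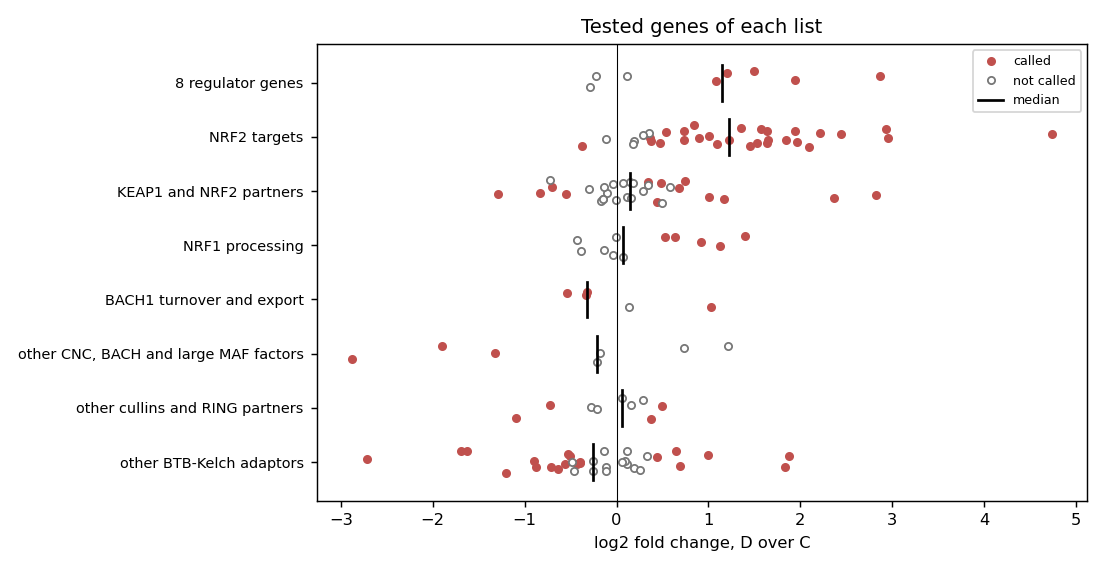
Log2 fold change of D over C (horizontal axis) for every tested gene of the 8 regulators and of the 7 other lists, with a line at each median and filled points for called genes. The regulators and the NRF2 targets have medians of 1.14 and 1.23, and the medians of the other lists lie between −0.32 and 0.14.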

How the data were processed

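Total RNA was isolated on columns and turned into SMARTER mRNA libraries, per the labels' protocols. For each library the authors deposited whole-number counts per gene symbol, without normalization, and FPKM values. The FPKM equalled the count divided by library total and by a gene length that was constant over libraries for 17144 of 17144 genes (relative tolerance 0.001). Mouse builds (GRCm38, mm10) are named in the submitters' processing notes. For the aligner, the counting tool and strandedness, nothing is given in the sources used here. Because the symbols follow human naming (16 of 17144 matched a mouse symbol in letter case), no coordinates and no sequences are given.

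Counts were tested with edgeR 4.0.16 in R 4.3.3: filterByExpr (12682 genes kept), TMM factors, quasi-likelihood F test with group as the only term, 2-sided, Benjamini-Hochberg over all tested genes, called at an adjusted p under 0.05. The SE is the log2 fold change divided by the square root of F. Profiles used log2 CPM with a prior count of 2. The floor of 3 counts was 0.139 to 0.170 CPM per library with the TMM factors and covers counting error only. Alternatives were DESeq2 1.42.0, limma 3.58.1 (voom, and trend on log2(FPKM + 1) or log2(FPKM + 0.1)), RLE, upper quartile or no factors, other filters, a replicate block, removal of each library's length trend (lowess span 0.4) and each library left out.

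The members and lists were chosen with earlier results of these data known. Named genes are the members, up to 3 called genes per list and direction with the largest change at a mean log2 CPM of at least 3 (or, with none called, the smallest p), and the 2 closest profiles per member. Genes making up a count of 5 or fewer and cell markers were named after their values were seen. Some genes counted in the lists are not reported here by name.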

Additional observations from a re-analysis of the deposited data

How the results depend on the processing

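The calls of KEAP1, NFE2L2, MAFF, MAFG and MAFK and the lack of a call for NFE2L1 kept their direction and side of the threshold in all 17 alternatives each. CUL3 was called as lower with library size only (−0.37), with log2(FPKM + 1) (−0.34) and with log2(FPKM + 0.1) (−0.37), and BACH1 changed sign in these settings (−0.032, −0.064 and −0.077), uncalled in each. With 1 library left out the log2 change ranged from −0.43 to −0.026 for NFE2L1, −0.25 to −0.15 for CUL3 and −0.10 to 0.29 for BACH1, the value below 0 being without D replicate 2.

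Without a library, the count of calls ranged from 1 to 3 for BACH1 turnover (4 called in all libraries) and from 2 to 7 for the other cullins (4 called). BACH1 turnover also had 2 calls with RLE factors. The other CNC and MAF genes had 1 call at a minimum of 1 CPM in 3 libraries, and the KEAP1 and NRF2 partners had 21 calls with length trends removed. Among all tested genes these settings called 6664 of 12059 and 8023 of 12682. Over all genes 6902 were called, 5407 to 7767 without a library, and higher calls made up 2586 of 7035 with library size only, where the median change was −0.17, against 3393 of 6902. The cause of these differences was not tested.

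The labels do not say whether the replicate numbers pair libraries. Deviations from the group means correlated at 0.01, −0.40 and −0.36 for numbers 1, 2 and 3. They correlated at 0.42 for C replicate 2 with D replicate 3 and at 0.34 for C replicate 3 with D replicate 2. The slope of these deviations per doubling of gene length was −0.049 and −0.18 in the former libraries and 0.050 and 0.17 in the latter. The correlations carry these length trends and so cannot decide whether the numbers pair libraries. Under a replicate block, 5 members were still called, with log2 changes such as 1.49 for KEAP1 and 2.86 for MAFF, BACH1 turnover had 1 call and the other cullins 2. The NRF2 targets held 25 rises and 0 falls under the block, where CBR1 was not called (−0.38). All tested genes held 2694 rises and 2977 falls under the block.

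For 44 other named genes, 668 of 735 values kept direction and call, 47 lost a call, 19 gained one and 1 changed sign, which was AKR1C2 without C replicate 1 (0.0039, uncalled, over a range of −0.22 to 0.0039 with 1 library left out).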
